A study of Mus musculus with 24 samples.

Results

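The acute response of wild-type (WT) macrophages to bacterial lipopolysaccharide (LPS) was examined by comparing 3 WT cultures stimulated with LPS for 3 h (LPS 3h) with 3 WT cultures left unstimulated (Unstim.). These 6 libraries were taken, by genotype and treatment label, from 24 in the series, which covers WT and Irg1-/- cells in 4 treatments each. The cells were bone marrow-derived macrophages (BMDMs), grown for 7 days with M-CSF at 20 ng/ml from the marrow of mice 8 to 20 weeks old. WT mice were C57BL/6N, and Irg1-/- mice, used for a comparison near the end, lack Irg1, the gene now named Acod1. The LPS was from E. coli 0111:B4, at 100 ng/ml. Cells of the LPS 3h group went through 24 h without stimulus, a medium change and 1 h of rest before LPS was added, as in the non-tolerized arm of a tolerance experiment. Unstimulated cells were harvested without LPS, and the labels do not say that they had the same medium change. The measurement was 3′-end RNA-seq, in which oligo-dT primers capture the ends of polyadenylated transcripts.

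LPS is a component of the outer membrane of Gram-negative bacteria. Macrophages sense it through CD14, MD-2 and Toll-like receptor 4 (TLR4), which signals through the adaptor MyD88 to NF-kappaB and MAP kinases, and through the adaptor TRIF to IRF3 and type I interferon. NF-kappaB is held in the cytoplasm by IkappaB proteins until these are degraded, after which it drives cytokine, chemokine and inhibitor genes. Secreted interferon-beta then acts back on the cells through a complex of transcription factors that binds the interferon-stimulated response element (ISRE) before antiviral genes.

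Motifs of these factors were read in the RefSeq promoters (GRCm38, the assembly named mm10) of several genes that the results turn on. Each line gives 130 bases ending just before the annotated start, 5′ to 3′ on the gene's strand. Capitals mark a match to the NF-kappaB motif (GGANNTTCC or GGGNNTTCC) or to the ISRE (GAAANNGAA), on either strand. The genes are the IkappaB-alpha gene Nfkbia (chr12:55492648-55492777, minus strand), the cytokine gene Il6 (chr5:30012984-30013113, plus strand), the chemokine genes Cxcl10 (chr5:92348890-92349019, minus strand) and Cxcl9 (chr5:92328080-92328209, minus strand), and the antiviral genes Rsad2 (chr12:26456453-26456582, minus strand), Ifit3 (chr19:34583399-34583528, plus strand) and Isg15 (chr4:156200819-156200948, minus strand).
Nfkbia: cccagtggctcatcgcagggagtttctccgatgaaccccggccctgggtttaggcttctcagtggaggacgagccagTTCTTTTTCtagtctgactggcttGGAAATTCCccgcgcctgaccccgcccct
Il6: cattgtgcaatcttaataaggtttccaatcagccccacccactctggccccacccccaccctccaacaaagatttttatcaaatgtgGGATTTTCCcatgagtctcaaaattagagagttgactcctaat
Cxcl10: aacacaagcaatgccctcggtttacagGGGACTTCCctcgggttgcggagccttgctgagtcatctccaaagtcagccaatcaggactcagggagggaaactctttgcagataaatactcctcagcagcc
Cxcl9: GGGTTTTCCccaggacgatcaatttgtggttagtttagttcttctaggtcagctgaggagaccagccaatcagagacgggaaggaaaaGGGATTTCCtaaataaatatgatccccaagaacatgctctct
Rsad2: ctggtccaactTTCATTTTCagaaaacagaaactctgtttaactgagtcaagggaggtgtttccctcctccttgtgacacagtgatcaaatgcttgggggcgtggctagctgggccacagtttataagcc
Ifit3: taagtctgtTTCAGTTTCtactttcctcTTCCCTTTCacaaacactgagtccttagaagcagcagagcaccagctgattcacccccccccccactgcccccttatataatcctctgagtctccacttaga
Isg15: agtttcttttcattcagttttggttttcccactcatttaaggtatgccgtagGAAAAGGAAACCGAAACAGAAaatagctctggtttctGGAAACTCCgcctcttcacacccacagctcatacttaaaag

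In Nfkbia the NF-kappaB match nearest the start began 29 bases before it, and in Il6 the match began 43 bases before the start. Further matches within 250 bases lay before the printed letters. They were NF-kappaB matches at 178 bases in Nfkbia and 158 in Cxcl10. The ISRE matches there were at 213 bases in Cxcl10, 175 in Cxcl9 and 155 in Ifit3. Cxcl9 held 2 NF-kappaB matches, at 130 and 42 bases before the start. Isg15 held 3 ISRE matches that overlap one another, at 78, 72 and 66 bases before the start, and an NF-kappaB match at 41. Over the 250 bases before the start, 8.28% of the 27025 promoters in the table held the NF-kappaB motif and 7.16% held the ISRE. By the same search the ISRE was in 18 of the 31 antiviral genes and in 8 of the 9 GBP and IRG genes (interferon-inducible GTPases) that had a promoter in the table. The NF-kappaB motif was in 5 of 8 genes of NF-kappaB and IkappaB proteins, in 7 of 16 inflammatory cytokine genes and in 8 of 17 chemokine genes. A match is a description of letters and not of a bound site. Only 79.8% of the genes tested had a promoter in the table. No comparison of motif shares between genes that rose and genes that fell is given.

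The number of reads counted on genes was 7830264 to 15642267 in the unstimulated libraries and 7797424 to 12258471 in the LPS 3h libraries. These reads were 48.0% to 53.2% of all reads in a column, and 11293 to 12504 genes had at least 1 count. Macrophage markers were abundant in all 6 libraries, with a summed level over 8 genes of 6710 to 7944 normalized CPM in Unstim. and 6179 to 8000 after LPS 3h (CPM, counts scaled to the size of each library, are normalized here by TMM factors). The 4 B cell markers summed to at most 1.53 normalized CPM, with Cd79a at 0, the 4 T cell markers to at most 0.237, the 4 dendritic cell markers to at most 5.73, the 4 mast cell and basophil markers to at most 1.46, and the 4 erythroid markers to at most 0.729. The 7 neutrophil and granulocyte precursor markers summed to 476 to 672 in Unstim. and 526 to 606 after LPS 3h, most of it from S100a8 and S100a9, which macrophages also express. Other markers of that list were detected as well. Summed over each group, Ltf had 1860 counts in Unstim. and 512 after LPS 3h, and Camp had 559 and 391. Mpo and Elane were lower, and whether granulocytic cells were present was not tested. The 5 fibroblast and endothelial markers, led by Col1a2, summed to 231 to 306 and to 280 to 364. Y-linked genes were detected in all 6 libraries at a summed 282 to 362 and 252 to 352 normalized CPM. The column name of each library in the count table carries a prefix numbered from 1 to 4. Because barcoded samples were pooled during library preparation, libraries with the same prefix are taken here as a pool, which is an inference that the labels do not state. All 3 unstimulated libraries had prefix 4 (pool 4), whereas LPS 3h cultures 1, 2 and 3 had prefixes 1, 2 and 4, so that culture 3 was the only stimulated library with the prefix of the controls.

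After 3 h of LPS, a large part of the measured transcriptome differed from Unstim. Pools also differed in part between the groups, and the medium change may have. Of 11878 genes tested, 3806 (32.0%) passed an adjusted p of 0.05 in edgeR's quasi-likelihood test, of which 1874 (15.8%) were higher and 1932 (16.3%) were lower after LPS. The changes reached further upwards: 397 genes rose by at least 4 on the log2 scale and 74 by at least 8, whereas 192 fell by at least 4 and 12 by at least 8. The median change was 2.02 among genes called higher and −1.75 among genes called lower. Levels of the 3 and 3 libraries did not overlap in 47.6% of all genes tested and in 3671 of the 3806 called. The exact permutation test of 3 cultures against 3 cannot give a p below 0.1, so single genes rest on the fit across all genes.

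**Figure D1:**
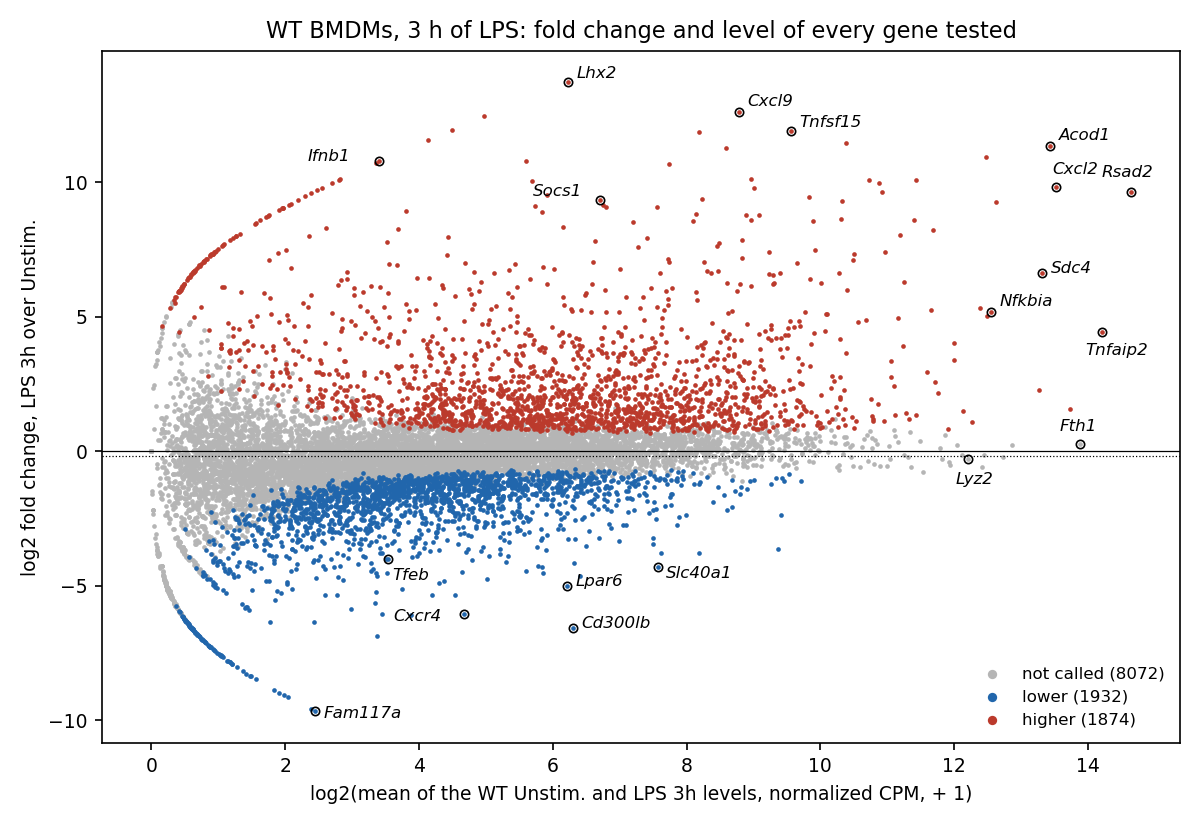
Fold change against level for the 11878 genes tested in WT BMDMs: the vertical axis is the log2 fold change of LPS 3h over Unstim., the horizontal axis is the log2 of the mean level plus 1, and each point is a gene, red for the 1874 called higher, blue for the 1932 called lower and grey for the rest. Rsad2, Acod1, Cxcl2 and Tnfaip2 lie far to the right among the genes that rose, Cd300lb, Lpar6 and Slc40a1 are labelled among those that fell, the curved edges are genes with 0 counts in a group, and the dotted line is the median of all genes at −0.18.

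The induced genes came to hold most of the gene counts of each LPS 3h library. Of all counts in a column, genes called higher held 9.79% to 10.1% in Unstim. and 31.6% to 32.0% after LPS 3h. Genes called higher held 19.1% to 20.4% of gene counts in the 3 unstimulated libraries and 59.9% to 61.4% after LPS 3h, and genes called lower went from 12.4% to 13.0% down to 2.29% to 2.37%; these shares describe the genes that the same comparison chose. The 10 genes with the largest rises in share held 0.347% to 0.414% before and 14.4% to 14.8% after LPS. They were Rsad2 (viperin, an antiviral enzyme), Tnfaip2, Cxcl2, Acod1, the heparan sulfate proteoglycan gene Sdc4, Ifit1, Cxcl10, Nfkbia, the cyclin-dependent kinase inhibitor gene Cdkn1a and Parp14. Rsad2 alone rose from 0.00837% to 3.53% of gene counts and Tnfaip2 from 0.222% to 2.51%.

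How libraries are scaled to each other sets where no change lies. The TMM factors placed the median gene at −0.18 on the log2 scale. With library totals alone that median moved to −1.10, and 1043 genes were higher and 5813 lower; all 1932 genes called lower above were then still called lower, and 1043 of the 1874 called higher were still called higher, while 123 of them had the opposite sign without being called. The 5 largest falls in share were those of abundant macrophage transcripts: Fth1 (ferritin heavy chain) fell from 1.81% to 1.15% of gene counts, Lpl from 0.864% to 0.300%, Ctsb from 0.953% to 0.435%, Apoe from 0.763% to 0.367% and Lyz2 from 0.685% to 0.295%, but none of them was called with TMM factors. The 13 mitochondrially encoded genes had a median log2 fold change of 0.37 with TMM factors and −0.56 with library totals, with none called under the former and 2 called lower under the latter. In bulk libraries, more cells of a type and more RNA per cell cannot be told apart.

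**Figure D2:**
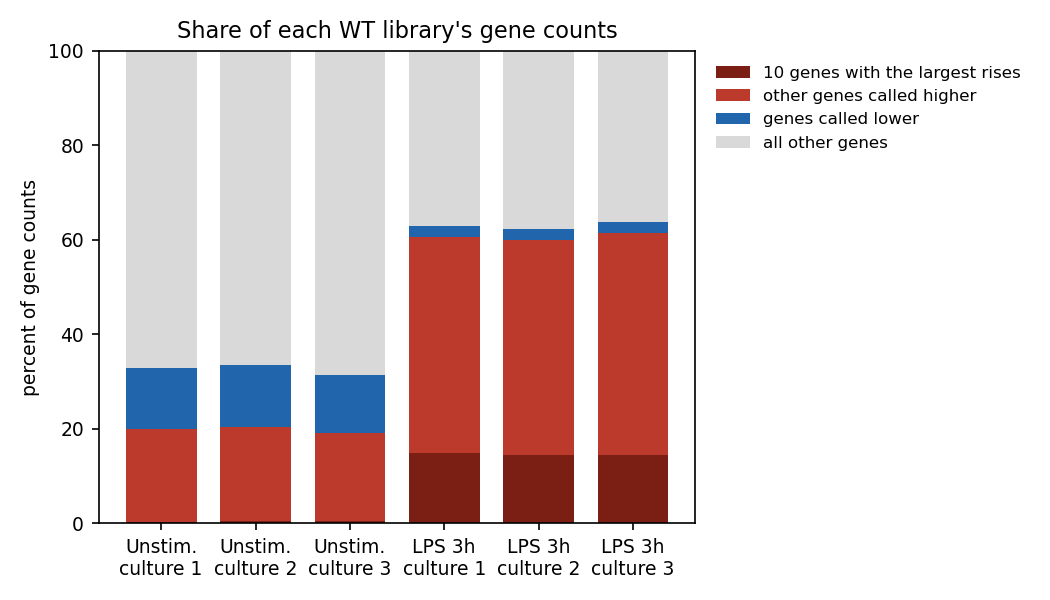
Each bar is a WT library and shows the percent of its gene counts held by the 10 genes with the largest rises in share, by the other genes called higher, by genes called lower and by all other genes. Genes called higher held 19.1% to 20.4% in the 3 unstimulated libraries and 59.9% to 61.4% in the 3 LPS 3h libraries.

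Of 22 tested genes of the LPS receptor complex and its adaptors, 9 rose and 3 fell. Over all genes 15.8% rose and 16.3% fell. The median log2 fold change of the list was 0.54 (−0.38 with library totals alone) beside −0.18 over all genes. Ripk2, a kinase of innate signalling, stood at 6.18, 6.11 and 6.97 normalized CPM in the unstimulated cultures and at 126, 124 and 135 after LPS, a log2 change of 4.32 ± 0.39 (SE). Cd14, the LPS co-receptor, rose by 3.18 ± 0.36, Myd88 by 2.81 ± 0.34 and Tab2, a TAK1-binding adaptor, by 2.74 ± 0.30. The receptor gene itself moved the other way: Tlr4 was at 48.5, 44.9 and 37.8 in Unstim. and at 21.7, 12.0 and 13.4 after LPS, a change of −1.49 ± 0.38 (adjusted p = 0.00265). Irak4 also fell, by 1.30 on the log2 scale, and so did Tab1, by 2.50, although Tab1 was no longer called with culture 3 as the only stimulated library. With replicate number and pool as terms in the fit, Tlr4 and Irak4 were not called (adjusted p = 0.133 and 0.102). Ly96, which encodes MD-2, was not called (0.86 ± 0.37, adjusted p = 0.0743), and its sign turned with library totals alone.

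Receptors for other microbial ligands were split. Of 8 tested Toll-like receptor genes other than Tlr4, 3 rose and 2 fell, beside 15.8% higher and 16.3% lower over all genes. Their median was 0.78 (−0.14 with library totals alone), and Tlr5, Tlr11 and Tlr12 had too few counts. Tlr2, the receptor for bacterial lipoproteins, went from 14.8 to 27.1 up to 361 to 555 normalized CPM (4.55 ± 0.39). Tlr3, the receptor for double-stranded RNA, rose by 2.51 ± 0.38 and Tlr1 by 2.30 ± 0.38. The endosomal receptors Tlr13 and Tlr9 fell, by 2.21 and 1.47, and Tlr9 was not called with replicate number and pool as terms (adjusted p = 0.0817).

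All 11 genes of NF-kappaB and IkappaB proteins rose, beside 15.8% of all genes, with a median of 3.61. Nfkbiz, an atypical IkappaB protein that acts in the nucleus, rose most: 46.8, 50.6 and 26.6 normalized CPM before and 3078, 2436 and 2463 after LPS (6.01 ± 0.44). Nfkbia, whose promoter letters are shown above, was at 327, 310 and 337 and then at 10404, 11112 and 13647 (5.17 ± 0.32, adjusted p = 2.83e-14). The genes of the p52 and p50 precursors, Nfkb2 and Nfkb1, rose by 4.05 ± 0.37 and 3.81 ± 0.29. The smallest rise of the list was that of Rela, which encodes the p65 subunit (1.76 ± 0.35). Its call was lost with replicate number and pool as terms (adjusted p = 0.0596). The 3 and 3 libraries did not overlap for any of the 11 genes, beside 47.6% of all genes tested and 3671 of the 3806 called.

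Of 20 tested immediate early and AP-1 genes, 11 rose and none fell, beside 15.8% higher and 16.3% lower over all genes. The median of the list was 1.62 (0.695 with library totals alone, where 9 were called higher and 4 lower). Maff, a small MAF factor, rose from 2.48 to 3.73 up to 146 to 216 normalized CPM (5.80 ± 0.42), and Junb rose by 3.44 ± 0.31, Ier3 by 2.93 and Batf by 2.76. Without Unstim. culture 3 the change of Batf was 4.37, and with replicate number and pool as terms it was 1.51 and not called (adjusted p = 0.12). Of the classical early genes, Ier2 rose by 2.42 ± 0.32 and Egr1 by 1.35 ± 0.41, the call of Egr1 being lost without Unstim. culture 2 (adjusted p = 0.0536) and with library totals alone (adjusted p = 0.394). Fos, Jun and Egr2 were among the 9 members not called. Fos was at 30.3, 50.1 and 66.6 in Unstim. and at 42.1, 18.2 and 26.1 after LPS, Jun changed by −0.59 ± 0.30 (adjusted p = 0.133), and Egr2 changed by −1.70 ± 0.69 (adjusted p = 0.0567).

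Of 14 interferon regulatory factors and STATs, 11 rose and 1 fell, beside 15.8% higher and 16.3% lower over all genes. The median of the list was 2.22. Irf7, a factor that amplifies interferon genes, had the largest change of the list (5.25 ± 0.45), and its stimulated cultures spread from 229 to 618 normalized CPM. Irf1 was tight in comparison, at 2193, 2041 and 2136 after LPS against 64.8, 64.2 and 56.7 before (5.10 ± 0.34). Stat5a rose by 4.28 ± 0.31. The factor that fell was Irf3, the constitutive factor of the TRIF branch, by 0.85 on the log2 scale (adjusted p = 0.0428), a call that was lost with culture 3 as the only stimulated library (adjusted p = 0.10) and without any 1 of the 6 libraries (adjusted p of 0.0645 to 0.186).

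The inhibitors that restrain the response were induced with it. Of 22 tested feedback genes, 21 rose and none fell, beside 15.8% higher and 16.3% lower over all genes. The median of the list was 3.93. Socs1, an inhibitor of JAK kinases, had 0.386, 0 and 0.439 normalized CPM in Unstim. and 184, 194 and 240 after LPS (9.33 ± 0.54). Socs3 rose by 8.79 ± 0.52, Cish by 8.35 ± 0.61 and the MAP kinase phosphatase gene Dusp2 by 7.94 ± 0.66. Tnfaip3, which encodes the ubiquitin-editing enzyme A20, rose by 6.58 ± 0.51, and the anti-inflammatory cytokine gene Il10 rose by 5.98 ± 0.58. The change of Cish was 9.14 without Unstim. culture 1, and that of Dusp2 was 8.54 without Unstim. culture 3. Dusp8 was the member not called (−0.30 ± 0.80).

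**Figure D3:**
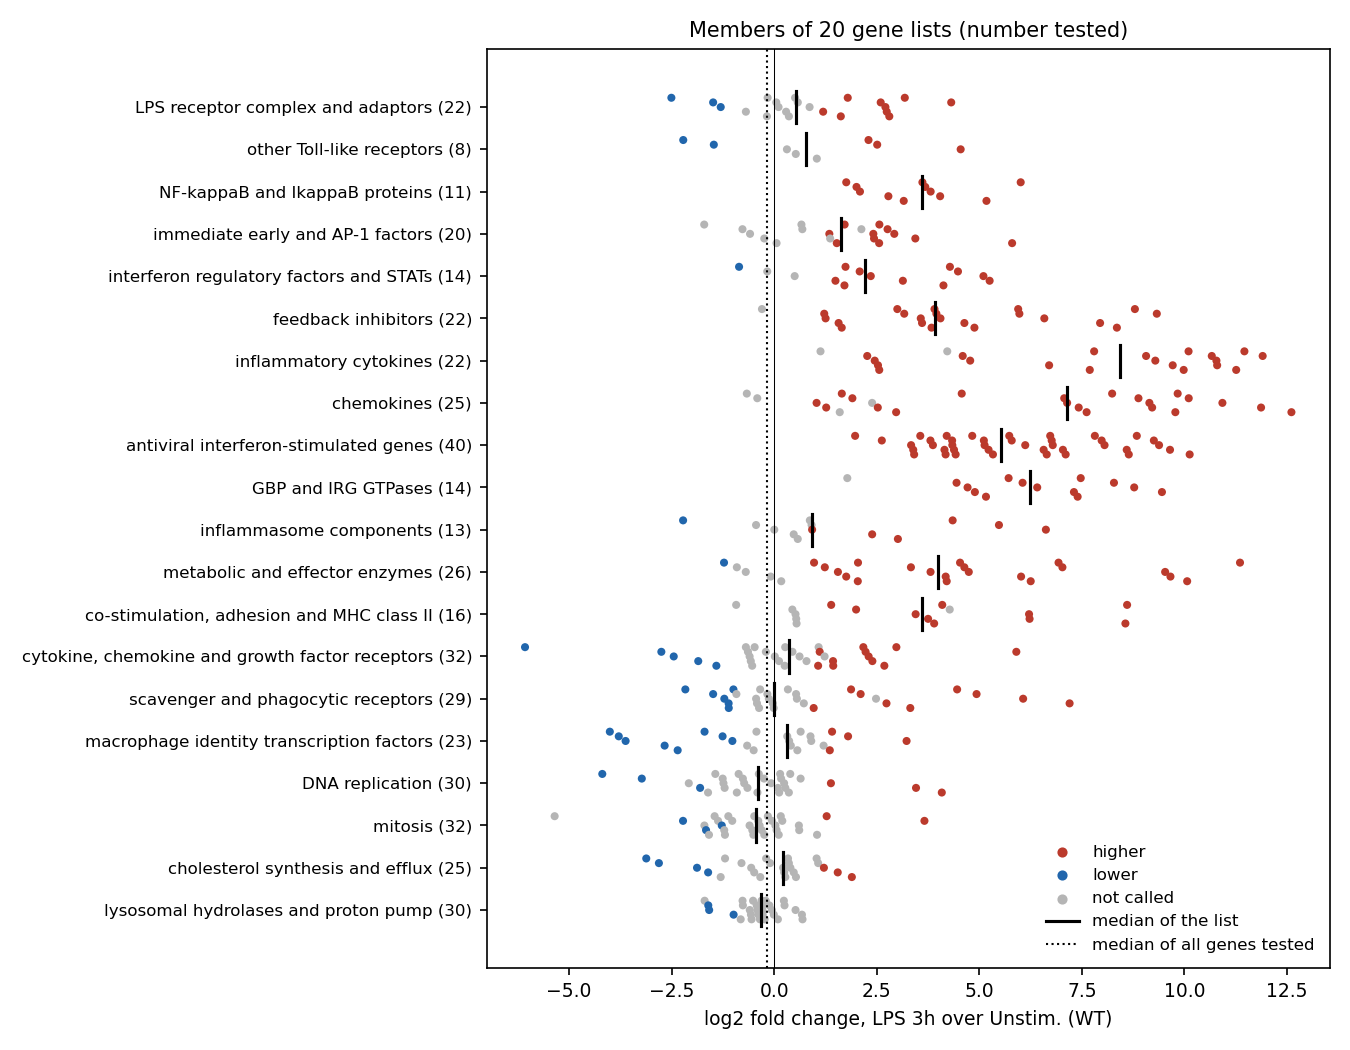
Each point is a tested member of a gene list, placed by its log2 fold change of LPS 3h over Unstim. in WT cells, red if called higher, blue if called lower and grey if not called; black bars are list medians and the dotted line is the median of all genes tested. Cytokines and chemokines reach furthest to the right, with medians of 8.43 and 7.14, whereas the medians of DNA replication, mitosis and lysosomal genes lie between −0.44 and −0.33.

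Inflammatory cytokine genes showed the largest median change of any list. Of 22 tested, 20 rose and none fell, beside 15.8% higher and 16.3% lower over all genes. Their median was 8.43, or 7.49 with genes at or near 0 counts in Unstim. set to the fold that their counts allow. Tnfsf15, a TNF family cytokine, went from 0.451, 0.286 and 0.390 normalized CPM to 1408, 1356 and 1779 (11.90 ± 0.46, adjusted p = 2.1e-18). Il12b, a subunit of IL-12 and IL-23, went from 0.644, 1.24 and 0.975 to 2154, 2549 and 3308 (11.46 ± 0.63). Il27 rose by 11.26 ± 0.70, or by 14.16 without Unstim. culture 1 and 10.67 without Unstim. culture 3. Il23a had 2 counts over the 3 unstimulated libraries and 2037 over the stimulated ones, a 2206-fold difference with a 95% counting interval of 609.9 to 18227.

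The interferon-beta gene Ifnb1 had 0 counts in all unstimulated libraries and 449 after LPS, which is at least 324-fold higher against a floor of 3 counts over the group. Its level differed between the stimulated cultures, at 5.83, 31.9 and 19.6 normalized CPM. The pyrogenic cytokines were all strongly induced: Il1b went from 4.38, 5.06 and 5.65 to 6256, 5890 and 4465 (10.10 ± 0.44), Tnf from 4.06, 3.05 and 5.07 to 3522, 2011 and 2178 (9.29 ± 0.49), and Il6 from 0.0644, 0.191 and 0.439 to 378, 502 and 393 (10.66 ± 0.77). Without Unstim. culture 3 the change of Il6 was 11.72. Il12a had 0 counts before LPS and was at least 144-fold higher after it. Osm was not called (1.13 ± 0.45, adjusted p = 0.055), and Csf3 had 4 counts after LPS and none before.

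Chemokine genes followed closely. Of 25 tested, 21 rose and none fell, beside 15.8% higher and 16.3% lower over all genes. Their median was 7.14, or 6.55 with genes at 0 set to their bounds. The ligands of CXCR3, which draw T cells and natural killer cells, had the highest fold changes. Cxcl9 went from 0.129, 0.191 and 0.0975 normalized CPM to 727, 1251 and 664 (12.61 ± 0.70), Cxcl11 from 0.0644, 0 and 0.292 to 572, 524 and 652 (11.87 ± 0.71), and Cxcl10 from 4.96, 2.86 and 9.55 to 13714, 10718 and 9901 (10.92 ± 0.53). These 3 genes lie side by side on chromosome 5, at chr5:92321347-92328079, chr5:92346638-92348889 and chr5:92359544-92365485. Ccl5 rose by 10.10 ± 0.61. Without Unstim. culture 3 the changes were 13.55 for Cxcl11 and 11.53 for Cxcl10.

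The neutrophil attractants Cxcl2 (chr5:90903871-90905938) and Cxcl1 (chr5:90891241-90893115) rose by 9.83 ± 0.43 and 9.78 on the log2 scale, and Cxcl2 reached 31591, 19156 and 19880 normalized CPM. Within the same cluster the platelet factor gene Pf4 rose by only 1.27 ± 0.36, a call that was lost with the pool as a term (adjusted p = 0.14) and with library totals alone (adjusted p = 0.42), and Ppbp was not called (−0.67 ± 0.84). In the CC cluster of chromosome 11 a gene that was not called lay between strongly induced ones: Ccl3 and Ccl4 rose by 7.42 ± 0.41 and 8.24 ± 0.42 and Ccl5 by 10.10, whereas Ccl6 (chr11:83587882-83593087) was at 329, 318 and 373 before and at 307, 194 and 266 after LPS (−0.41 ± 0.30, adjusted p = 0.32). Cx3cl1 (1.60 ± 1.25) and Ccl17 (2.39 ± 1.71) were near 1 normalized CPM and were not called either. Ccl22 and Ccl20 had 0 counts in Unstim. and were at least 93.9-fold and 23.8-fold higher after LPS, the latter not called with culture 3 alone (adjusted p = 0.065).

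Every one of the 40 antiviral interferon-stimulated genes rose, beside 15.8% of all genes, with a median of 5.53 and changes of 1.97 to 10.13. The 3 and 3 libraries did not overlap for any of them, beside 47.6% of all genes tested and 3671 of the 3806 called. Rsad2 was at 62.7, 64.1 and 64.2 normalized CPM before LPS and at 52134, 42765 and 58289 after it (9.65 ± 0.49). Ifi205, an interferon-inducible gene of the p200 family, rose by 10.13 ± 0.60, Oasl1 by 9.38 ± 0.49 and Ifit1 by 9.25 ± 0.55. Without Unstim. culture 1 the change of Oasl1 was 10.16. Ifit1 varied between stimulated cultures, at 9099, 21210 and 7632. Isg15, a ubiquitin-like protein, went from 1.16, 0.668 and 0.731 to 184, 250 and 154 (7.82 ± 0.41), and the smallest rise was that of the tetherin gene Bst2 (1.97 ± 0.35). Reads of near-identical family members (the Ifit, Oas, Slfn, Ifi200 and Phf11 genes) may be shared or dropped by counting, so values of single members are uncertain.

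The interferon-inducible GTPases that attack vacuoles of intracellular microbes rose as well, 13 of 14 tested, beside 15.8% of all genes. Their median was 6.23. Gbp5 went from 2.70, 2.58 and 2.49 to 1610, 1688 and 2157 normalized CPM (9.45 ± 0.79), Iigp1 rose by 8.77 ± 0.52 and Gbp3 by 7.47 ± 0.58. Tgtp2 had 3 counts in Unstim. and 508 after LPS, a 367-fold difference with a counting interval of 125 to 1784. Gbp8 was low and not called (1.78 ± 0.96). These families too hold near-identical copies.

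Inflammasome genes were mixed: 6 of 13 rose and 1 fell, beside 15.8% higher and 16.3% lower over all genes. Their median was 0.91 (−0.01 with library totals alone). The sensor gene Nlrp3 rose by 6.62 ± 0.52, and its stimulated cultures were far apart, at 836, 1326 and 5239 normalized CPM against 18.6 to 31.5 in Unstim.; without culture 3, the highest, its log2 fold change was 5.48. Mefv (pyrin) rose by 5.48 ± 0.59, Casp4 (caspase-11) by 4.35 ± 0.33 and Aim2, a sensor of DNA, by 3.02 ± 0.51. Nlrp1b fell by 2.22 on the log2 scale (adjusted p = 0.00158), a call that was lost with culture 3 as the only stimulated library (adjusted p = 0.09), and by 1.58 without Unstim. culture 1.

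Of 26 tested metabolic and effector enzymes, 21 rose and 1 fell, beside 15.8% higher and 16.3% lower over all genes. The median of the list was 4.00. Acod1 (also named Irg1), which makes itaconate from cis-aconitate, went from 9.40, 5.82 and 10.0 normalized CPM to 22828, 28052 and 15637 (11.35 ± 0.69, adjusted p = 2.54e-14). Ch25h, which makes 25-hydroxycholesterol, rose by 10.06 ± 0.94, Ptgs2 (cyclooxygenase-2) by 9.66 ± 0.58 and Nos2 (inducible nitric oxide synthase) by 9.53 ± 0.75. Without Unstim. culture 3 the rise of Ch25h was 13.14. Ptgs2 was at 3943, 3775 and 3946 after LPS. The constitutive cyclooxygenase gene Ptgs1 went the other way (−1.22 ± 0.41, adjusted p = 0.0219), a call lost with the pool as a term (adjusted p = 0.063) and without any 1 of 5 WT libraries, Unstim. culture 3 being the exception (adjusted p of 0.0547 to 0.0907). Hk2, a hexokinase of glycolysis, rose by 4.74 ± 0.31.

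At the cell surface, 10 of 16 co-stimulation, adhesion and MHC class II genes rose and none fell, with a median of 3.60. Over all genes 15.8% were higher and 16.3% lower. Cd40, which receives help from T cells, went from 4.06, 1.91 and 1.66 to 997, 1126 and 855 normalized CPM (8.60 ± 0.51). Cd69 rose by 8.56 ± 0.43, the PD-L1 gene Cd274 by 6.22 ± 0.49 and the adhesion molecule gene Icam1 by 6.21 ± 0.46. Among genes of MHC class II, H2-Ab1 rose by 1.39 ± 0.42 (adjusted p = 0.0103), a call that was lost with the pool as a term (adjusted p = 0.158), with culture 3 as the only stimulated library (adjusted p = 0.0936) and with library totals alone (adjusted p = 0.357). H2-Eb1 and Ciita were not called, and neither were Cd74 and H2-Aa: Cd74 changed by 0.54 ± 0.36 (adjusted p = 0.271) and H2-Aa by 0.52 ± 0.43 (adjusted p = 0.393), and both signs turned with library totals alone.

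Receptors for cytokines, chemokines and growth factors showed 11 genes higher and 5 lower of 32 tested, with a median of 0.36 (−0.57 with library totals alone). Over all genes the shares were 15.8% higher and 16.3% lower, so the falls were near the overall share. Ccrl2, an atypical chemokine receptor, rose by 5.90 ± 0.34. Cxcr4, the receptor for CXCL12, fell most, from 45.4, 48.5 and 51.5 normalized CPM to 0.729, 0 and 1.46 (−6.07 ± 0.64, adjusted p = 4.32e-09). Its change was −5.37 without LPS 3h culture 2 and −7.24 without culture 3. Il6ra fell from 233, 300 and 153 to 33.2, 31.9 and 36.9 (−2.75 ± 0.32), and Il17ra rose by 2.98 ± 0.39. The M-CSF receptor gene Csf1r was not called (−0.20 ± 0.35).

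Scavenger and phagocytic receptors likewise moved in both directions, with 9 of 29 higher, 6 lower and a median of −0.01. Over all genes 15.8% were higher and 16.3% lower. Clec4e (Mincle, a receptor for mycobacterial glycolipids) rose from 5.17 to 7.35 up to 754 to 989 normalized CPM (7.20 ± 0.43), and the formyl peptide receptor genes Fpr2 and Fpr1 rose by 6.07 ± 0.42 and 4.93 ± 0.57. Without Unstim. culture 1 the rise of Fpr1 was 6.05. Marco rose by 4.46 ± 0.58, and the largest fall of the list was that of the scavenger receptor gene Stab1, from 296, 321 and 294 to 90.0, 54.9 and 58.8 (−2.16 ± 0.27).

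Of 23 tested transcription factors that mark the macrophage state, 4 rose and 8 fell, beside 15.8% of all genes higher and 16.3% lower, and the median of the list was 0.32 (−0.61 with library totals alone). Tfeb, a factor of lysosome and autophagy genes, went from 21.1, 18.4 and 20.3 to 1.28, 0.355 and 2.12 normalized CPM (−4.00 ± 0.52). Cebpa went from 19.5, 12.1 and 22.1 to 2.73, 0.829 and 0.530 (−3.79 ± 0.62). Without LPS 3h culture 3 the change of Tfeb was −4.66, and without culture 1 that of Cebpa was −4.65. Pparg, a nuclear receptor of lipid metabolism, fell by 2.67. Tfec was the largest rise of the list (3.23 ± 0.32). Spi1, which encodes PU.1, was not called (0.41 ± 0.27), and its sign turned with library totals alone.

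Few cell cycle genes were called. Of 30 tested DNA replication genes 3 rose and 3 fell, with a median of −0.39. Of 32 tested mitosis genes 2 rose and 3 fell, with a median of −0.44. These shares lie below the 32.0% of all genes, but many members had low counts, so few calls are not evidence of little change. With library totals alone 14 and 11 were called lower, with medians of −1.32 and −1.36. Cdkn1a, which encodes the inhibitor p21 and is in neither list, went from 353, 384 and 307 to 15742, 5868 and 12055 normalized CPM (5.01 ± 0.43). Ccne1 (cyclin E1) rose by 4.09 ± 0.63. Mki67 rose by 3.66 ± 0.57, with 147, 436 and 159 normalized CPM after LPS, while Cdk1, the kinase of mitotic entry, fell by 1.28, a call lost with culture 3 as the only stimulated library (adjusted p = 0.066) and without Unstim. culture 3, LPS 3h culture 2 or LPS 3h culture 3 (adjusted p of 0.129 to 0.158). Without LPS 3h culture 2 the rise of Mki67 was 3.01. Cdc45, a replication helicase gene, had 90 counts before LPS and 2 after it, a 20.8-fold fall with a counting interval of 5.59 to 174, and was not called with the pool as a term (adjusted p = 0.067) or without Unstim. culture 2, LPS 3h culture 2 or LPS 3h culture 3 (adjusted p of 0.0798 to 0.106).

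Few cholesterol and lysosome genes rose. Beside 15.8% of all genes higher and 16.3% lower, 3 of 25 cholesterol genes rose and 4 fell, with a median of 0.22 (−0.71 with library totals alone): the late synthesis genes Lss and Dhcr7 fell by 3.12 and 2.81 from levels under 10 normalized CPM, and the efflux transporter gene Abcg1 fell by 1.61. The call of Lss was lost without Unstim. culture 2 (−2.46, adjusted p = 0.0533); its change was −3.86 without LPS 3h culture 1 and −2.47 without culture 3. The call of Dhcr7 was lost without Unstim. culture 1 or 3 or LPS 3h culture 2 or 3 (adjusted p of 0.0503 to 0.115), with a change of −2.17 without LPS 3h culture 3. Of 30 lysosomal hydrolase and proton pump genes none rose and 3 fell, with a median of −0.33; they were Atp6v0d2 (−1.60 ± 0.37), Neu1 (−1.58 ± 0.31) and Gusb (−0.99 ± 0.29), and Gusb was not called with culture 3 as the only stimulated library (adjusted p = 0.20). Without Unstim. culture 3, Atp6v0d2 was not called (−0.94, adjusted p = 0.0507). With library totals alone, 25 of the 30 were called lower, so that count rests on the scaling.

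**Figure D4:**
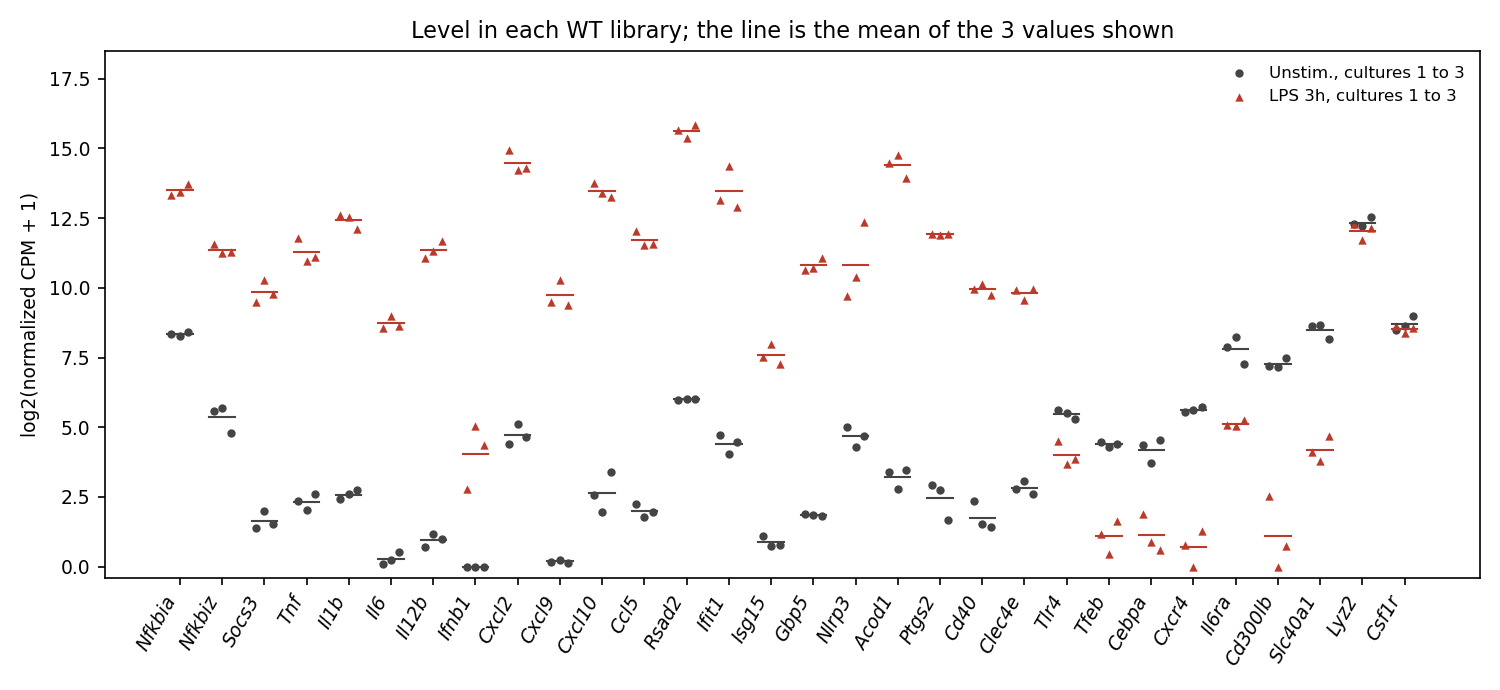
Level of 30 genes in each WT library, as log2 of normalized CPM plus 1, with grey circles for the 3 unstimulated cultures, red triangles for the 3 LPS 3h cultures and a line at the mean of each group. The groups do not overlap for the genes from Nfkbia to Slc40a1, while Lyz2 and Csf1r, which mark macrophages, overlap. The LPS 3h cultures of Nlrp3, Cd300lb and Ifnb1 are the most spread.

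The 15 highest fold changes among genes without overlap and with enough counts included genes outside the lists. Lhx2, a LIM homeobox factor (chr2), had 0 counts in Unstim. and 171, 123 and 149 normalized CPM after LPS, at least 2241-fold higher. Shisa3 was at least 953-fold, Heatr9 at least 653-fold, the RNA U90926 at least 509.7-fold and the OX40 ligand gene Tnfsf4 at least 291-fold higher, each from 0 counts. In all, 87 genes called higher had 0 counts in every unstimulated library, and 50 of these had a mean of at least 10 counts after LPS. The remaining 10 of the 15 were Cxcl9, Tnfsf15, Cxcl11, Il12b, Acod1, Il27, Cxcl10, Il23a, Ifnb1 and Il6.

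The 15 lowest fold changes were all of genes at low level that had 0 counts in every LPS 3h library. Fam117a, with 7.53, 7.83 and 11.4 normalized CPM in Unstim., was at least 66.6-fold lower, Fam78a at least 60.9-fold, Arhgef4 at least 44.0-fold, Fam83f at least 43.6-fold and the co-stimulatory receptor gene Cd28 at least 37.2-fold lower. The others were Mblac1, Tpbgl, BC106179, C130050O18Rik, Kcnj9, Galnt9, Spef2, Sbk1, Card6 and the unnamed gene ENSMUSG00000091089.1, with bounds from 17.9-fold (Card6) to 34.9-fold for ENSMUSG00000091089.1. Calls of 7 of the 15 were lost with culture 3 as the only stimulated library.

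To describe repression where counts were high, genes with at least 100 normalized CPM in Unstim. were also ranked; this choice was made after the values were seen. The largest fall was that of Cd300lb, an activating immunoglobulin-like receptor, from 144, 144 and 176 to 4.74, 0 and 0.662 normalized CPM (−6.57 ± 0.64); it was −8.84 without LPS 3h culture 1 and −5.87 without culture 2. The lysophosphatidic acid receptor gene Lpar6 fell from 151, 170 and 107 to 5.47, 4.98 and 2.78 (−5.02 ± 0.36), and the phosphatidate phosphatase gene Lpin1 from 152, 175 and 156 to 9.11, 4.50 and 5.83 (−4.65 ± 0.39). Slc40a1, which encodes the iron exporter ferroportin, fell from 392, 402 and 284 to 16.4, 12.8 and 24.6 (−4.32 ± 0.32, adjusted p = 1.42e-12). Irf2bp2 fell by 3.79, the lysosomal trafficking gene Rab7b fell by 3.43 and the mRNA decay factor gene Zfp36l2 fell by 3.24. Each of these 7 genes also fell with culture 3 as the only stimulated library, a library that had helped to choose them.

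Spread between the stimulated cultures was moderate for most induced genes. Among the 1675 genes called higher with at least 10 normalized CPM after LPS, the highest culture was a median of 1.47 times the lowest, and in 287 of them the ratio was above 2. With culture 3 as the only stimulated library, 1854 of the 1874 genes called higher and all 1932 called lower had the same sign. Culture 3 and the controls also helped to choose these genes, so this agreement is largely built in and is no independent check. The Y-linked gene Kdm5d was called lower (−1.01 ± 0.38, adjusted p = 0.0437), Uty, Ddx3y and Eif2s3y were not called, and Kdm5d was no longer called with the pool as a term (adjusted p = 0.26) or without any 1 of the 6 libraries but LPS 3h culture 3 (adjusted p of 0.0706 to 0.202). The B cell marker Cd79b was called lower too, with 39 counts in Unstim. and none after LPS, and was not called without Unstim. culture 2 or any 1 LPS 3h culture (adjusted p of 0.0603 to 0.0772). If only the stimulated cells had the medium change, it cannot be told apart from LPS in this design.

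The same stimulus in Irg1-/- BMDMs offered libraries that the WT contrast leaves out, although all 24 libraries entered the same fit. Irg1-/- libraries thus helped to set the gene filter, the TMM factors and the spread behind the WT calls. In these 3 and 3 libraries 4260 of the 11878 genes (35.9%) were called. Of the 1874 genes called higher in WT, 1587 were called higher in Irg1-/- cells, which is 84.7% of the WT list and 78.7% of the 2017 genes of the Irg1-/- list. Of the 1932 called lower in WT, 1349 were also called lower there, or 69.8% of the WT list and 60.1% of the other. No gene was called in opposite directions. Across the 11878 genes, which are not independent replicates, the Pearson correlation of the log2 fold changes was 0.77. Stimulated Irg1-/- libraries had prefixes 2 and 3 and their controls prefix 4, so in that genotype stimulus and pool cannot be told apart; the WT and Irg1-/- controls share the pool.

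The test of the difference between the genotypes' responses called 1 gene (0.00842%), Acod1 itself, at −11.02 ± 0.78 (adjusted p = 6.54e-11). In Irg1-/- cells Acod1 was at 9.77 ± 2.04 normalized CPM (SD, n = 3) unstimulated and at 12.0 ± 12.9 (n = 3) after LPS, a log2 change of 0.33 ± 0.48, so reads at its 3′ end remained near the unstimulated level of WT cells. At an unadjusted p under 0.05 the difference passed in 676 genes (5.69%), and DESeq2's Wald test called 4 (Acod1, Arg1, Tnfsf15 and Pilrb1). The next genes, Tnfsf15 and Pilrb1, missed the threshold at an adjusted p of 0.0975: Tnfsf15 rose by 11.90 in WT and 9.44 in Irg1-/- cells, and Pilrb1 changed by 1.08 and 8.37. For the induced lists the values stood side by side as follows: all 11 genes of NF-kappaB and IkappaB proteins and all 40 antiviral genes were called higher in both genotypes, and 21 of 22 cytokine and 20 of 25 chemokine genes were called higher in Irg1-/- cells against 20 and 21 in WT. Of all 11878 genes tested, 1874 were called higher in WT and 2017 in Irg1-/- cells.

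**Figure D5:**
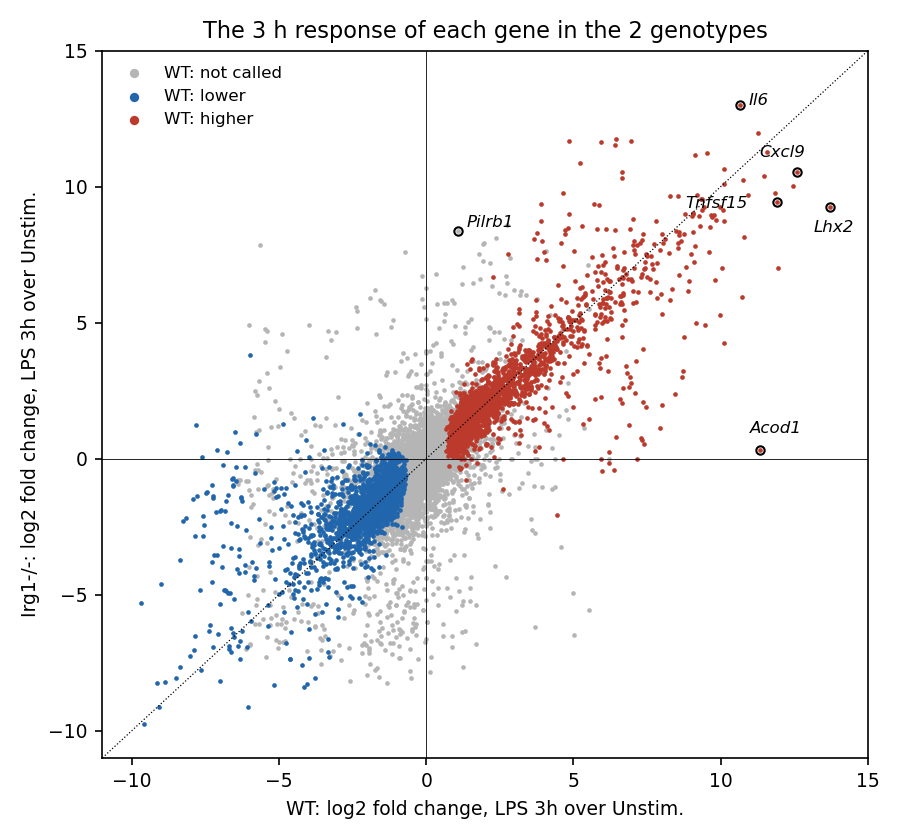
Each point is a gene tested, with its log2 fold change of LPS 3h over Unstim. in WT cells on the horizontal axis and in Irg1-/- cells on the vertical axis, coloured by its call in WT; the dotted line marks equal change. Most genes called in WT lie near the dotted line on the same side of 0, and Acod1 stands apart at 11.35 in WT and 0.33 in Irg1-/- cells.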

How the data were processed

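Per the labels, RNA from 3 cultures per group was made into 3′-end libraries with 12 PCR cycles and no molecular identifiers, so counting intervals cover counting error only. The authors aligned reads with STAR to mm10 and deposited raw counts per gene; counter, annotation and strand setting are not given in the sources used here, so overlapping and antisense genes cannot be told apart. From these counts, the 5 summary lines (reads on no gene, ambiguous or not unique) were left out, and all 24 libraries in 8 groups were fitted with edgeR 4.0.16 in R 4.3.3 (filterByExpr, TMM, quasi-likelihood F test), with Benjamini-Hochberg adjustment over 11878 genes. Symbols and positions came from GENCODE M21, promoters from RefSeq. Log2 fold changes carry SEs.

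Genes named were list members (the 4 largest called changes per list, and uncalled members), the 15 highest and 15 lowest changes, the 10 largest rises and 5 largest falls in share of counts, and Acod1; the abundant repressed genes and Tlr4, Irak4, Tab1, Tlr9, Rela, Irf3, Tnfaip3, Il10, Il1b, Tnf, Il12a, Cxcl2, Cxcl1, Pf4, Ccl3, Ccl4, Ccl22, Ccl20, Bst2, Isg15, Nlrp1b, Hk2, Ptgs1, Stab1, Pparg, Cdk1, Abcg1, Ier2, Egr1, H2-Ab1, Cd79b, Kdm5d, Tnfsf15 and Pilrb1 in the comparison of genotypes were added after values were seen. Lists and groups were chosen with earlier results of these data known. Alternatives included DESeq2 1.42.0. Some list members are counted but not reported here by name.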

Additional observations from a re-analysis of the deposited data

Results flagged for a closer look

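The response of Acod1 to LPS differed between the genotypes in the test of the difference itself: the log2 fold change in Irg1-/- cells minus that in WT cells was −11.02 (edgeR, adjusted p = 6.54e-11). Acod1 is the gene removed in the Irg1-/- mice, so this is a check of the labels. Groups of 3 were too small to be searched for single libraries that stand apart.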

How the results depend on the processing

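The main counts in WT were 3806 called, 1874 higher and 1932 lower. With library totals alone they were 6856, 1043 and 5813. With culture 3 as the only stimulated library (pool 4 alone, an alternative chosen after seeing the data) they were 2488 called and 1079 lower, and with the replicate block and the pool as terms 1271 were lower; fewer samples or residual degrees of freedom enter both fits. Leaving out 1 replicate at a time gave 3151 to 3329 called. The remaining alternatives for WT (DESeq2 size factors and Wald test, TMM without the 20 top genes, other filters, fewer groups, the pool as a term) kept each count within 1.5 times. In Irg1-/- cells 6883 were called with library totals alone, 2361 with the pool as a term and 1486 with the replicate block and pool. The difference between genotypes gave 4 genes with DESeq2's Wald test, 26 without a filter on low counts, 4 with the replicate block and pool, and 1 to 4 leaving out 1 replicate.

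Replicate numbers did not pair the samples: deviations of same-numbered libraries correlated at −0.0499, −0.102 and −0.0876, and the replicate block gave 3899 called in WT. Motif shares of genes past a larger fold were not compared.

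Among genes that were not called, signs turned as follows. With library totals alone the log2 fold change was −0.66 for Fth1, −0.39 for Cd74, −0.40 for H2-Aa, −0.060 for Ly96 and −0.52 for Spi1. With the pool as a term it was −0.025 for Fth1, −0.26 for Cd74, −0.26 for H2-Aa and −0.052 for Ly96. With the replicate block and pool it was −0.19 for Fth1, −0.40 for Cd74, −0.20 for H2-Aa, −0.11 for Spi1 and 0.033 for Dusp8. With pool 4 alone it was −0.18 for Cd74, −0.015 for Ly96, 0.33 for Dusp8 and 0.25 for Ppbp. Leaving out 1 replicate gave −0.22 to 0.032 for Apoe, −0.71 to 0.059 for Dusp8 and −1.49 to 0.48 for Ppbp. The cause was not tested. Genes under about 10 counts per library rest on few reads, and a fold from 0 is a lower bound.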
